A study of Mus musculus with 6 samples.

Results

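The genes described here encode chromatin remodelling complexes and the histone deacetylases that work with them. They comprise 46 genes of 18193 that the array represents by a probe set with 1 gene symbol. The members are subunits of the BAF, NuRD, ISWI and INO80 complexes, the CHD remodellers, deacetylases with the demethylase Kdm1a, the remodellers Hells and Atrx, and the atrophins Atn1 and Rere. Each was found by its symbol, and a gene with several probe sets is represented by its brightest, judged by the mean of the 6 arrays. All 46 had such a probe set, and they had 116 probe sets in all. The list was selected on measured values of these arrays, including the lower Chd1 of clone A3 and the differences on induction. Clone and induction values of the members are therefore a description. Counts of members past a threshold stand beside the share of all genes, and nothing is read from them.

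Mouse embryonic stem (ES) cells had been engineered at the ROSA26 locus to carry human GTF2IRD2, a relative of TFII-I, under a promoter that tetracycline represses. Induced cultures were taken 24 h after tetracycline was withdrawn. Uninduced cultures were grown with tetracycline and taken at 0 h. Each of the lines A3, A4 and A5 is 1 clone of the EB3 line and gave 1 array per condition, so there were 3 induced and 3 uninduced arrays. All clones, controls included, carry the transgene with its FLAG tag and were grown in LIF medium, and 0 arrays come from a line without it. The methods give the insert as the longest annotated coding sequence without UTRs, but the supplement shows for GTF2IRD2 a far shorter insert than for its relatives GTF2I and GTF2IRD1. That the full-length factor was made is therefore not known for any induced array. The mouse probe sets need not detect the human sequence. Signals are log2 RMA values, on which a difference of 1 is 2-fold. They measure total RNA of a whole culture, in which fewer expressing cells and less RNA per cell cannot be told apart.

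Remodellers use ATP to slide, evict or exchange nucleosomes, and deacetylases remove the acetyl groups that keep chromatin open. Most complexes are built from interchangeable paralogs. ES cells are known for an own form of BAF built around the ATPase Smarca4, and neurons for one with Actl6b in place of Actl6a. Human TFII-I has been purified with complexes that hold deacetylases and Kdm1a.

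Array medians lay between 5.03 and 5.06. The labelled cell type was borne out by its markers. All 8 ES cell markers, Pou5f1 and Nanog among them, had signals of 10.2 to 13.9, with a mean per array of 12.0 to 12.1 in induced and in uninduced arrays. The 7 fibroblast or feeder markers averaged 4.37 to 4.45 and the 5 primitive endoderm markers 4.55 to 4.82, below the array medians, while the 6 neural markers averaged 5.71 to 6.06. Single markers had means under that of the median probe set for 5 of the 7 and 4 of the 5. Thy1 (6.50), Dcn (5.05) and Dab2 (5.10) did not. Some marker genes differed between clone A3 and clones A4 and A5. The neural markers averaged 5.71 to 5.78 on the A3 arrays, against 5.93 to 6.06 on the others, and the primitive endoderm markers 4.55 to 4.61, against 4.64 to 4.82. The latter list was not uniform between A4 and A5. Its marker Dab2 had clone means of 4.99, 4.90 and 5.40 in A3, A4 and A5, highest in A5. Dab2 was the 1 marker of that list called by the F-test of the clone term given below. Both A3 arrays lay below the other 4 for 2 of 6 neural markers, Neurod1 (-0.67) and Map2 (-0.45), where 16.6% of all genes did. The same held for 2 of 5 primitive endoderm markers, Gata4 (-0.32) and Gata6 (-0.18), and for 3 of 8 ES cell markers. Map2, Gata4 and Gata6 had means under the array medians. Both A3 arrays lay above the other 4 for 1 ES cell marker, Zfp42 (0.07), where 14% of all genes did. The part of these markers in the A3 differences of the members was not tested. Limma's F-test of the clone term passed an adjusted p under 0.05 for 980 of 45037 probe sets, and for 26 once both A3 arrays were left out.

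Paralog use can be shown beside the promoters, because the sequences of both genes of a pair are known. Windows of 250 bases before the start of transcription were matched by symbol for 35 of the 46 members in RefSeq (GRCm38.p6), and Chd1, Atn1, Hdac1 and Chd3 are among the 11 without one. Printed are the ATPase pair Smarca4 and Smarca2 and the actin-like pair Actl6a and Actl6b, of which Smarca2 and Actl6b had signals below the array medians, and Smarca1, the member whose clone means ranged most. Smarca4 is at chr9:21615919-21616168 (+ strand), Smarca2 at chr19:26604910-26605159 (+), Actl6a at chr3:32708296-32708545 (+), Actl6b at chr5:137553296-137553545 (+) and Smarca1 at chrX:47892614-47892863 (- strand). Capitals mark matches on either strand to the GC box GGGCGG, the CCAAT box, the TATA box TATAAA, the NRF1 motif GCGCATGC, the ETS motif CCGGAAG and the YY1 motif AAGATGGC, with no overlap between matches.
Smarca4: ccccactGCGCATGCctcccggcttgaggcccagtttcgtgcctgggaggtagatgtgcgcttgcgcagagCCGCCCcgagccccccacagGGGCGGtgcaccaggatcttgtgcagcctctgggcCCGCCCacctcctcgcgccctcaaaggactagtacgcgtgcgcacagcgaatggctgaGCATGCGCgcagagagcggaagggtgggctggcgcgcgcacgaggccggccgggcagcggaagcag
Smarca2: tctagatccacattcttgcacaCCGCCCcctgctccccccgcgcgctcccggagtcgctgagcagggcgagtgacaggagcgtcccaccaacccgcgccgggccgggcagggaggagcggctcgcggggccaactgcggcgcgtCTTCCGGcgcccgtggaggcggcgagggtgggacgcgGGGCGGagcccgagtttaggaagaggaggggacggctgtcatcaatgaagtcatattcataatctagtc
Actl6a: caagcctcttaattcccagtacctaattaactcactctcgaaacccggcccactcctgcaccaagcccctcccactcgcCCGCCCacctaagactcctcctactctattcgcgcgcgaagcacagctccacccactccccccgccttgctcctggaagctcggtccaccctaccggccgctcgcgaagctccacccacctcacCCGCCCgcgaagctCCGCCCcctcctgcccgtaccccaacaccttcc
Actl6b: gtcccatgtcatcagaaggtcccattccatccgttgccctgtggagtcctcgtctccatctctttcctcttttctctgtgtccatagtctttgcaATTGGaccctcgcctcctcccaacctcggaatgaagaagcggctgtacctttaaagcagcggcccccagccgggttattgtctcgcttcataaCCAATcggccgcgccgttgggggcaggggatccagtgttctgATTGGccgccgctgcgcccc
Smarca1: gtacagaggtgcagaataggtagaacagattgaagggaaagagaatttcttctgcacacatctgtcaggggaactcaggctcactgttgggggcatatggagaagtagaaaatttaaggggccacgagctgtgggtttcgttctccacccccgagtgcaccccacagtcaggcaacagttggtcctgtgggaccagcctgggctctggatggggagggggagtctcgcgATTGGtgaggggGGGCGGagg

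The Smarca4 window held 3 GC boxes and 2 matches to GCGCATGC, and the Smarca2 window 2 GC boxes and 1 ETS match. The Actl6a window held 3 GC boxes, and that of its neuronal paralog Actl6b had 0 GC boxes and 3 CCAAT boxes. The Smarca1 window had 1 match each to GGGCGG and CCAAT. Of 32851 windows of this length in the table, 32.7% hold a GC box, 33.8% CCAAT, 12.4% TATAAA, 2.26% GCGCATGC, 6.91% CCGGAAG and 1.56% AAGATGGC. CG dinucleotides numbered 25 in the window of Smarca4, 28 in that of Smarca2, 19 in Actl6a, 15 in Actl6b and 6 in Smarca1, where the median of all windows was 6. A match is a description of letters and not a mapped site.

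The ES cell paralogs of BAF had high signals on every array. Each probe set has its own response, so the signals of paralogs are given side by side and not ranked. Smarca4, the ATPase, had 10.37, 10.27 and 10.31 in the induced arrays of A3, A4 and A5, against 10.60, 10.17 and 10.53 in the uninduced arrays. Its alternative Smarca2 had 4.33, 4.50 and 4.25 in induced arrays, against 4.44, 4.51 and 4.57 in uninduced arrays. All 6 values of Smarca2 lay under the median of their array, and RMA values carry no call of whether a transcript was detected. A second Smarca2 probe set of weaker signal was 0.63 higher in A3 than in A4 and A5.

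Actl6a, an actin-related subunit, lay between 10.94 and 11.03 on all 6 arrays. Actl6b lay at 3.72, 4.20 and 3.95 in induced A3, A4 and A5, against 3.95, 4.06 and 4.10 in the uninduced arrays, again under the medians. Smarcc1, a scaffold subunit, lay between 10.26 and 10.63, and its paralog Smarcc2 between 5.78 and 6.16. These scaffold paralogs moved alike between clones, both A3 arrays being above the other 4 for each, by 0.27 ± 0.07 for Smarcc1 and 0.27 ± 0.07 for Smarcc2 (A3 minus the mean of A4 and A5, SE of the fit).

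The subunit Smarcd1 had signals of 8.31 to 8.88, its paralog Smarcd2 averaged 9.90, and Smarcd3 had signals of 7.44 to 7.77, so that all 3 paralogs of this family lay above the array medians. Arid1a, a DNA-binding subunit that is often lost in cancer, had signals of 10.25 to 10.70, and its paralog Arid1b of 7.50 to 7.62. Arid2 and Pbrm1, which define the PBAF form, had means of 10.07 and 10.10. The subunits Smarcb1, Smarce1 and Dpf2 had means of 10.08, 9.17 and 10.09, and the bromodomain subunits Brd7 and Brd9 had means of 8.74 and 7.99. Among the 18 BAF genes, Smarca2 and Actl6b were thus the only genes with a mean under 5.

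In NuRD, which couples an ATPase to deacetylation, the ATPase Chd4 had signals of 9.04 to 9.59 and its paralog Chd3 of 5.83 to 6.69. Mbd3, the subunit that assembles NuRD in ES cells, had signals of 9.39 to 9.57, and Mbd2, which binds methylated DNA, of 7.33 to 7.60. Hdac1 lay between 11.51 and 11.63 and Hdac2 between 11.26 and 11.43, the catalytic pair of NuRD. Hdac3, the deacetylase of the NCoR complexes, had a mean of 8.94 and the demethylase Kdm1a one of 11.88. In ISWI, Smarca5 lay between 11.61 and 11.77 and Smarca1 between 7.48 and 8.74. The clone means of the 3 deacetylases and Kdm1a ranged by 0.02 (Hdac2) to 0.09 (Kdm1a), and that of Hdac2 was the smallest range among the 46 members.

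Differences between clones are described first, and those on induction further below. Among the 5 members with the largest range of clone means, Smarca1 and Bptf of the ISWI family and Chd8 had higher means in A3 than in either other clone, and Chd1 and Chd3 lower ones. The F-test of the clone term called 2 of 46 members, Chd1 and Smarca1, where it called 3.09% of all genes by their 1 probe set and 2.18% of all probe sets. The members were chosen with the clone values known, so that count is no evidence of a difference. Both A3 arrays lay below the other 4 for 7 members (16.6% of all genes) and above them for 12 (14% of all genes), and the remaining 27 overlapped. The median range of clone means was 0.21 over the members and 0.15 over all genes.

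Chd1 is a remodeller that binds histone H3 trimethylated at lysine 4 and keeps ES cell chromatin open. It had 7.47 induced and 7.50 uninduced in A3, against 7.95 and 8.13 in A4 and 8.11 and 8.15 in A5. Both A3 arrays lay below the other 4, and A4 and A5 overlapped. The difference of A3 from the mean of A4 and A5 was -0.60 ± 0.08 (SE), so the A3 level was 66.2% of the others. All 4 Chd1 probe sets were lower in A3, by -0.54 to -1.01, and in each both A3 arrays lay below the other 4.

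**Figure D1:**
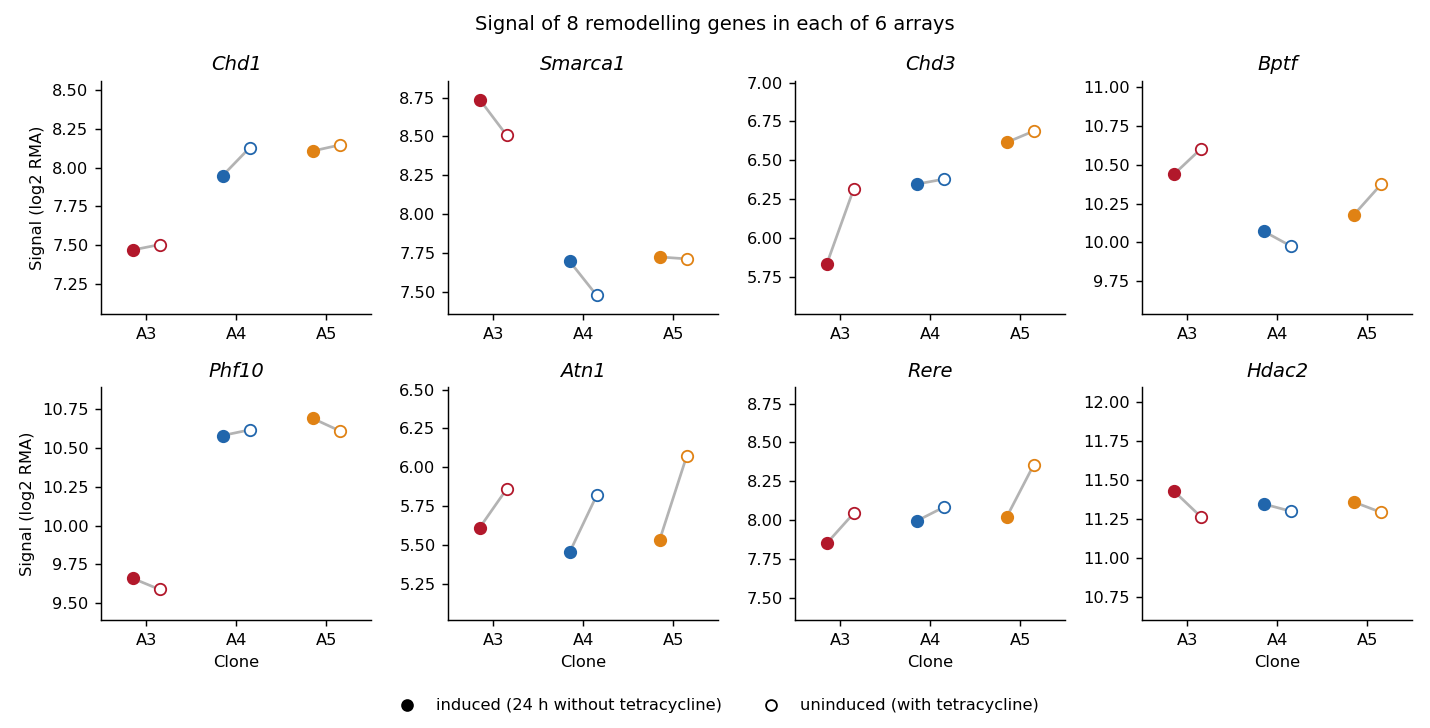
Signal (log2 RMA, y axis, each panel spanning 1.5) of 7 members and of Phf10 in each array, by clone (x axis). Filled points are induced and open points uninduced cultures, joined within a clone. Chd1 and Phf10 are low and Smarca1 high in both A3 arrays, and Atn1 and Rere are lower in the induced array of each clone.

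Smarca1, an ISWI ATPase, had 8.74 induced and 8.51 uninduced in A3, against 7.69 and 7.48 in A4 and 7.72 and 7.71 in A5. It was 0.97 ± 0.08 higher in A3, or 1.96-fold, and A3 did not overlap the other clones. Its paralog Smarca5, an ISWI ATPase that works with Baz1b, differed by 0.09 ± 0.07. Smarca1 lies on chromosome X. The 20 measured genes nearest to it there had a median A3 difference of 0.04, with both A3 arrays above the others in 5 and below them in 2.

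Bptf, the largest subunit of the NURF remodeller, had 10.44 induced and 10.60 uninduced in A3, against 10.07 and 9.98 in A4 and 10.18 and 10.37 in A5. All 4 of its probe sets had both A3 arrays above the other 4, with differences of 0.20 to 0.53 (0.37 ± 0.09 at the probe set used). The size rested in part on A4, as it was 0.24 without both A4 arrays and 0.50 without both A5 arrays. Chd8, a remodeller that represses Wnt targets, had 8.65 induced and 8.89 uninduced in A3, against 8.41 and 8.36 in A4 and 8.46 and 8.66 in A5. Its A3 arrays overlapped those of A5, with a difference of 0.29 ± 0.08 and -0.04 to 0.40 over its 4 probe sets.

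Chd3 had 5.83 induced and 6.32 uninduced in A3, against 6.35 and 6.38 in A4 and 6.62 and 6.69 in A5. The difference was -0.43 ± 0.10 with 1 probe set, and its size turned on the induced A3 array, as it was -0.22 without that array and -0.65 without the uninduced A3 array. Chd4, its NuRD alternative, differed by 0.23 ± 0.08, upwards in A3, but its A3 arrays overlapped those of A5. Its clone means were 9.45, 9.10 and 9.33 in A3, A4 and A5. Over its 3 probe sets the difference was 0.23 to 0.46, and in 2 both A3 arrays lay above the other 4. The other members below in A3 were Mta3, a NuRD subunit (-0.28, but -0.28 to 0.14 over its 3 probe sets, of which 1 had both A3 arrays above the other 4), the AAA+ ATPase Ruvbl2 (-0.23), Smarcb1 (-0.12), Smarcd2 (-0.12) and Ruvbl1 (-0.08). Those above, besides Smarca1, Bptf and the Smarcc pair, were Chd2 (0.27), Hells (0.27), Ino80 (0.23), Mbd2 (0.22), Pbrm1 (0.18), Arid1b (0.08), Kdm1a (0.07) and Actl6a (0.05).

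**Figure D2:**
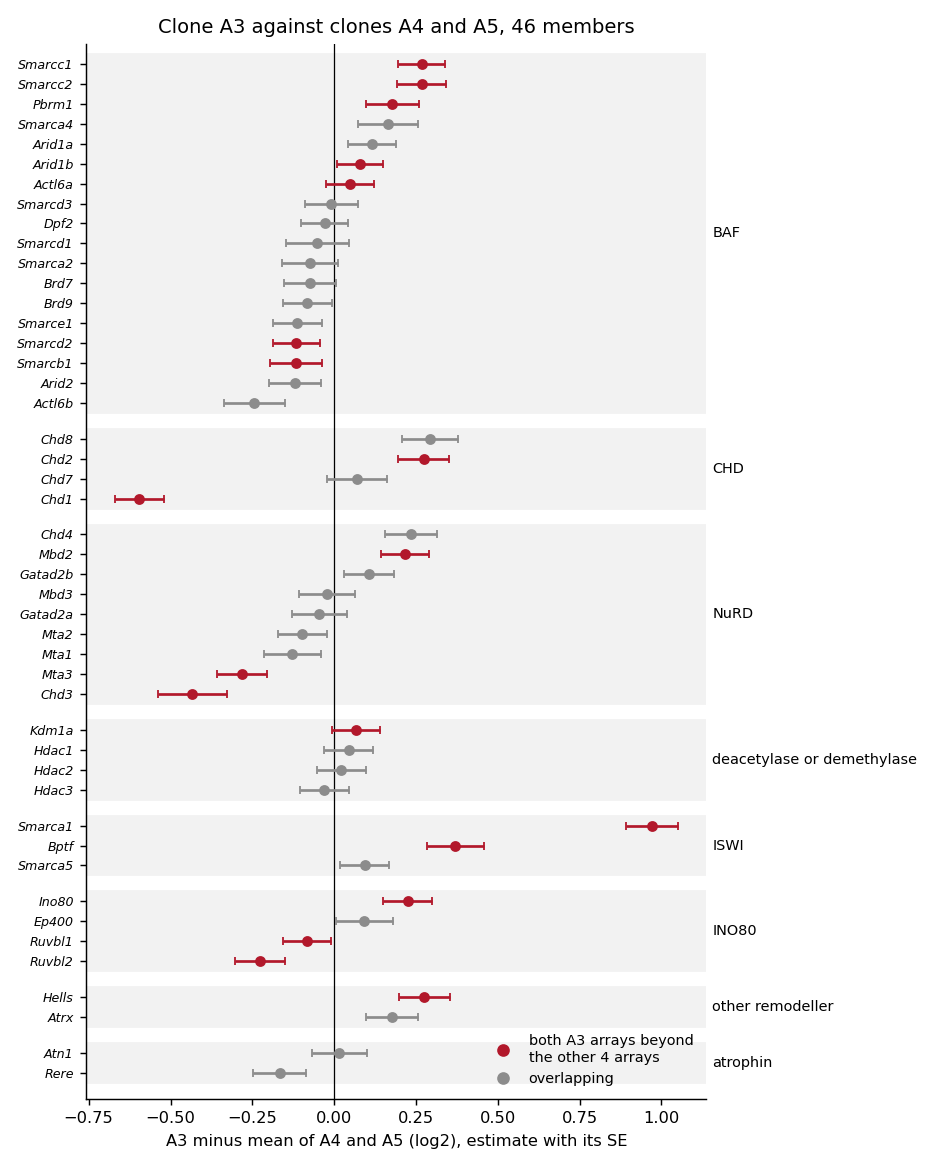
A3 minus the mean of A4 and A5 (log2, x axis) for the 46 members by complex (y axis), as the estimate with its SE from the fit with clone and induction. Members in red had both A3 arrays beyond the other 4; Smarca1 at 0.97 and Chd1 at -0.60 mark the ends.

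Chd1 was not alone on its chromosome. Of the 40 measured genes (mean signal of at least 5) next to it on chromosome 17, 20 on each side, both A3 arrays lay below the other 4 in 36 and above them in 0, where 16.6% of all genes lay below. Their median A3 difference was -0.68, a level of 62.6% of that in A4 and A5, and their median difference between A4 and A5 was 0.01. Over the other 560 genes of the chromosome with a mean of at least 5, the median was -0.02, with 113 below and 82 above. Chromosome order came from the reference gene table. On 1 side all genes from place 8 to place 20, Zfp160 to Zfp945, are zinc finger genes whose probes may share sequence. They hold the lowest A3 difference of the 40 (Zfp53, -1.16), so the count and the median rest in part on them. Such a run of lower genes was seen for no other member. The members were compared by 10 measured neighbours on each side, of which Chd1 had 18 of 20 below and a median of -0.64. For the 44 other members with 20 measured neighbours the median was -0.07 to 0.09, and at most 9 of the 20 lay below. Arid1b had 13 such neighbours, with a median of -0.15 and 6 below.

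The 40 genes were chosen for description after their values were seen, so their values are a description. They include Tbp, which encodes the TATA-binding protein (-0.80), Psmb1, a proteasome subunit (-0.88), and Tcp1, a chaperonin subunit (-0.68). They also include 1 other remodelling gene, Phf10, a PBAF subunit with 6 measured genes between it and Chd1. Phf10 had 9.66 induced and 9.59 uninduced in A3, against 10.58 and 10.62 in A4 and 10.69 and 10.61 in A5. The clone means were 9.62, 10.60 and 10.65 in A3, A4 and A5. A second probe set of Phf10 differed by -1.22. The members Arid1b (0.08) and Mta3 (-0.28), also on chromosome 17, lie outside these 40 genes. DNA copy number was not measured, and its part in the lower signals was not tested. The poly-A spikes, control transcripts added to the RNA, averaged 6.17 to 6.46 on the A3 arrays, against 5.71 to 6.15 on the other arrays. Their part in the A3 differences was not tested, and the 3' minus 5' signal of Actb was 0.31 to 0.35 in A3, within the 0.27 to 0.36 of the others.

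**Figure D3:**
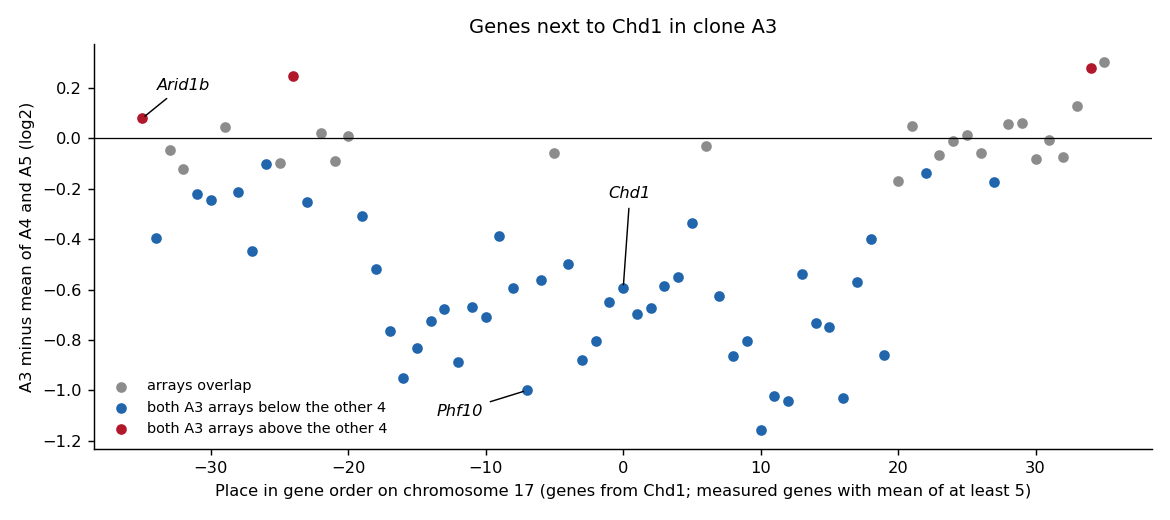
A3 minus the mean of A4 and A5 (log2, y axis) for genes of chromosome 17 in their order around Chd1 (x axis, number of measured genes from Chd1). Of the 20 genes on each side, 36 of 40 had both A3 arrays below the other 4, with a median of -0.68.

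On induction no member passed the threshold. Limma without a replicate block called 0 of 46 members and 0 of 45037 probe sets (0%), with 1 member, Atn1, at an unadjusted p under 0.05, against 2.36% of all genes. With the clone as a block limma called 0 too (smallest adjusted p = 0.843). In that fit 3 members were at an unadjusted p under 0.05, against 2597 of all 45037 probe sets. The methods' t-test also called 0, with 2 members at an unadjusted p under 0.05, against 1681 of all 45037 probe sets. A missing call does not show that levels were equal.

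Values below are therefore descriptions. The median difference, induced minus uninduced, was -0.04 over the members and -0.00278 over all genes. Within A3, A4 and A5 it was -0.07, 0.02 and -0.05, and 29, 20 and 29 of the 46 members lay below 0 there. Differences were negative in all 3 clones for 10 members (13.3% of all genes) and positive in all 3 for 6 (12.9% of all genes), and 30 had mixed signs. The 3 induced arrays lay below the 3 uninduced for Atn1 and Rere (4.07% of all genes) and above them for Hdac2 (3.16% of all genes).

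The atrophins had the lowest mean differences of all members. Atn1, a corepressor whose repeat expansion causes a neurodegenerative disease in humans, had 5.61, 5.45 and 5.53 in induced A3, A4 and A5, against 5.86, 5.82 and 6.07 in the uninduced arrays. The groups did not overlap, and the difference was -0.38 ± 0.09 (SE), 1.31-fold lower. Within A3, A4 and A5 it was -0.25, -0.37 and -0.54. It rested on 1 probe set and lay between -0.31 and -0.45 when any array or clone was left out. Rere, the related atrophin that recruits deacetylases, had 7.85, 7.995 and 8.02 in induced arrays, against 8.04, 8.08 and 8.36 in uninduced arrays. The groups did not overlap, but the gap between them was smaller than the range within either, with a difference of -0.21 ± 0.10. Its other 2 probe sets differed by -0.01 each, with signals of 4.42 and 3.45, under the array medians.

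Chd3, Chd4 and Arid1a also had lower values in every clone. Chd3 differed by -0.20 ± 0.19, with -0.48, -0.03 and -0.07 in A3, A4 and A5, and by 0.02 without the induced A3 array. Its SE holds the differences between clones, as that fit has no block. Chd4 had 9.31, 9.04 and 9.30 in induced arrays, against 9.59, 9.17 and 9.36 in uninduced arrays. Its difference was -0.16 ± 0.12, its 3 probe sets spanned -0.16 to 0.08, and it was -0.05 without the uninduced A3 array. Arid1a had 10.50, 10.25 and 10.56 in induced arrays, against 10.70, 10.46 and 10.67 in uninduced arrays, a difference of -0.18 ± 0.11. Its second probe set had mixed signs, with -0.21, 0.02 and -0.52 in A3, A4 and A5. In each of these genes the induced and uninduced arrays overlapped.

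Of the 30 members with mixed signs, Smarca4, Ep400 and Bptf are given as cases where A3 and A5 lay lower on induction while A4 did not. Smarca4 differed by -0.23, 0.09 and -0.22 in A3, A4 and A5. Ep400, the ATPase of the TIP60 complex, differed by -0.28, 0.02 and -0.25, and Bptf by -0.16, 0.10 and -0.19 in A3, A4 and A5. These members were chosen after their values were seen, for this pattern. Its share was counted neither over the members nor over all genes, so it is not read as a trait of the members. The poly-A spikes were higher in the induced array by 0.29, 0.08 and 0.44 in A3, A4 and A5, so that A3 and A5 had the larger spike differences too, and their part was not tested.

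Higher values in every clone were small. Hdac2 had 11.43, 11.35 and 11.36 in induced arrays, against 11.26, 11.30 and 11.29 in uninduced arrays, a difference of 0.09 ± 0.07 with -0.14 to 0.09 over its 3 probe sets. Hdac1 differed by -0.01 ± 0.07, with 0.04, -0.10 and 0.03 in A3, A4 and A5. Smarca1 differed by 0.15 ± 0.33, an SE that holds the gap between clones, with 0.23, 0.22 and 0.01. Smarce1 differed by 0.13 ± 0.08 and Hdac3 by 0.06 ± 0.07, and the remaining members with 1 sign were Arid1b and Dpf2 (0.03 each) on the higher side and Smarca2, Brd9, Chd1, Mta2 and Mta3 (-0.15 to -0.07) on the lower side. Chd1 itself differed by -0.08 ± 0.21 on induction, with -0.03, -0.18 and -0.04 in A3, A4 and A5, and its SE too holds the gap between clones.

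**Figure D4:**
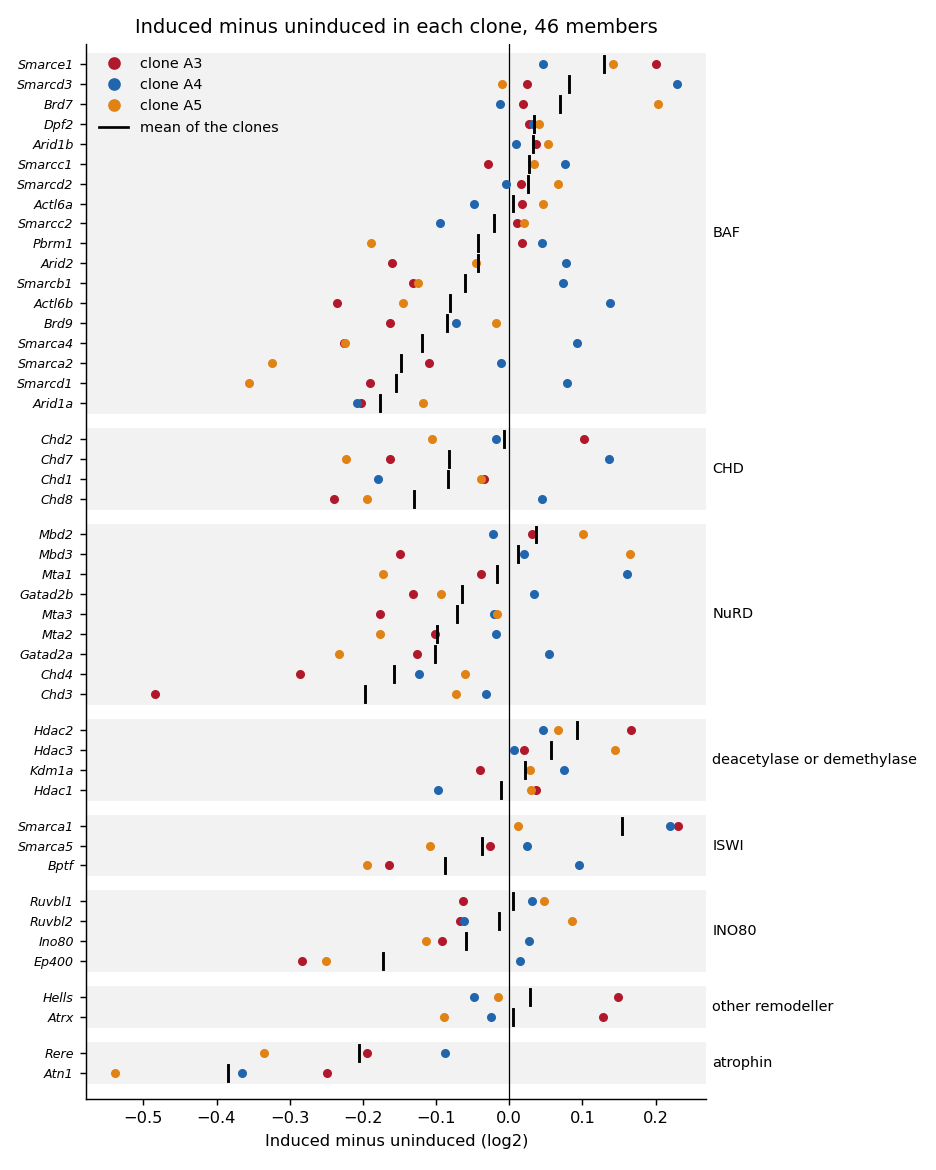
Induced minus uninduced signal (log2, x axis) for the 46 members by complex (y axis), with a point for each clone and a bar for the clones' mean. Atn1 at -0.38 and Rere at -0.21 have the lowest means and Smarca1 at 0.15 the highest.

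Other genes of the same complexes were taken from a list of 84, of which 81 had a probe set of 1 symbol. On induction limma called 0 of the 81, with 3 at an unadjusted p under 0.05 (Chd5, Sirt5 and Rcor3), against 2.36% of all genes. Their median difference was -0.02. Signs were negative in all 3 clones for 17 (13.3% of all genes) and positive in all 3 for 8 (12.9%). The induced arrays lay below the uninduced for 7 genes (4.07% of all genes) and above them for 4 (3.16%). Rcor3, a CoREST subunit that binds Kdm1a, had the largest difference of 1 sign, at 0.23 ± 0.09, but its 6 probe sets spanned -0.18 to 0.23. Hdac7, a class IIa deacetylase, differed by -0.20 ± 0.10 and Chd5, a neural NuRD ATPase, by -0.18 ± 0.08.

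Baz1b, the partner of Smarca5 in the WICH complex, is named because its human counterpart lies in the segment deleted in Williams-Beuren syndrome, in or beside which GTF2IRD2 lies too. It had 9.75, 9.71 and 9.84 in induced A3, A4 and A5, against 10.01, 9.76 and 9.97 in uninduced arrays. The groups overlapped, with a difference of -0.15 ± 0.09 and -0.15 to 0.00133 over its 5 probe sets. Between clones the F-test called 1 of the 81, Phf10, against 3.09% of all genes. Both A3 arrays lay below the others for 13 of the 81 (16.6% of all genes) and above them for 14 (14%), and the median range of clone means was 0.13.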

How the data were processed

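RNA of 6 cultures of mouse ES cell clones was measured on Affymetrix Mouse Genome 430 2.0 arrays. The deposited values are log2 RMA summaries that the authors computed with the affy package of Bioconductor, whose version is not given in the sources used here. Whether other arrays were normalised together with these is not stated either. Of 45101 probe sets, 64 controls were set aside and 45037 were tested with no filter on signal. Probe sets were named by the array's table, which gives 1 symbol for 34945, several for 932 and none for 9160, and 34737 were placed on a chromosome through the Entrez identifier. Groups and clones came from the sample labels.

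For induction a linear model of the 3 induced and 3 uninduced arrays was fitted with limma 3.58.1 under R 4.3.3 (two-sided moderated test) without a block, since the methods name a t-test and do not say that it was paired, and clones by the moderated F-test of the clone term beside induction. P-values were adjusted by Benjamini-Hochberg over 45037 probe sets with a threshold of 0.05. Those for induction reflect no more than the spread among 3 clones and their cultures, and 6 arrays limit the precision. In the clone test the 2 arrays of a clone, 1 induced and 1 uninduced, served as its replicates, also for the SEs of A3 differences. Its p-values therefore do not measure the spread between repeat cultures of a clone in 1 condition. The numbers 1, 2 and 3 of the labels mark the same clones, and after group means were removed induced and uninduced arrays of A3, A4 and A5 correlated at 0.524, 0.376 and 0.210, so they pair the arrays, and the fit with the clone as a replicate block is given beside the calls. The scripts were tested on simulated data.

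The members and lists were chosen with earlier results of these data known. Named genes were Chd1, Atn1, the 5 members with the largest range of clone means, the 5 with the largest induced minus uninduced difference of 1 sign in 3 clones, and fixed paralog sets. Of the other remodelling genes, Baz1b, those past the threshold and the 3 with the largest difference of 1 sign were named. Alternatives were an intensity trend, a mean of at least 5, centred medians, means over a gene's probe sets, the methods' t-test, the block, clone as the only term, and each array or clone left out. No values of the authors' comparisons were used.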

Additional observations from a re-analysis of the deposited data

How the results depend on the processing

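The count of members called between clones depended on the fit, as did the count over all probe sets. The latter was 980 as reported, 2641 with an intensity trend and 1885 without probe sets of a mean under 5. Without both A3 arrays 26 probe sets were called, and with means over a gene's probe sets 756 genes. Nothing is therefore read from the count of members. It was 2 as reported, 12 when an intensity trend was fitted, 4 when probe sets with a mean under 5 were left out, 5 with means over a gene's probe sets, and 0 to 3 with arrays or clones left out. Without both A3 arrays 0 members were called, without the induced A3 array only Smarca1, and without the uninduced A3 array Smarca1 and Chd3. For the other remodelling genes the count was 1 as reported, 2 with clone as the only term, 4 when an intensity trend was fitted, 3 without probe sets of a mean under 5, and 0 to 2 with arrays or clones left out. The lower Chd1 of A3 kept its direction, at -0.69 with means over its probe sets and -0.64 to -0.55 with arrays or clones left out, and the 1 setting without both A3 arrays cannot give it.

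On induction 0 members and 0 other remodelling genes were called in each of the settings run, the replicate block included (smallest adjusted p = 0.843). With the replicate block the Atn1 difference stayed at -0.38 and the median over members at -0.04. That median lay between -0.08 and -0.00824 with arrays or clones left out. Chd3 turned to 0.02 without the induced A3 array, and Rere was -0.07 with means over its probe sets. RMA gives no detection call, which limits what can be said of Smarca2 and Actl6b.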
